A study of Mus musculus with 24 samples.

Results

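Axon guidance ligands and receptors are families of secreted or membrane-bound cues and the cell surface proteins that read them. Genes were taken from the count table when their Ensembl identifier maps to a protein-coding mouse symbol of the semaphorins of classes 3 to 7, plexins, neuropilins, Slit1 to Slit3, Robo1 to Robo3, Ntn1 to Ntn5, netrin-G genes, Unc5a to Unc5d, Dcc, ephrins or Eph receptors. This gave 70 of the 54752 genes in the table, of which 37 encode ligands and 33 receptors. The ligands are 20 semaphorins, 3 Slits, 4 netrins, 2 netrin-G proteins, 5 ephrin-A and 3 ephrin-B proteins. The receptors are 9 plexins, 2 neuropilins, 3 Robos, 4 Unc5 proteins, Dcc, 9 EphA and 5 EphB proteins. Of the 70 genes, 65 (36 ligands and 29 receptors) had enough counts to be tested. Slit1, Robo3, Epha6, Epha8 and Epha10 did not, and no library held more than 13 counts of any of them.

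Semaphorins signal through plexins, the secreted ones mostly together with a neuropilin, while Slits bind Robo receptors, netrins bind Dcc and Unc5 receptors, and ephrins meet Eph receptor tyrosine kinases where cells touch. The same cues act in blood vessels: ephrin-B2 marks arterial and EphB4 venous endothelium, Unc5b is present on endothelial cells, and Sema3c guides cardiac neural crest cells into the outflow tract. The ductus arteriosus (DA) joins the pulmonary artery to the aorta before birth and closes after it, and much of its smooth muscle derives from the neural crest.

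RNA-Seq of 2 vessels of the mouse embryo at E18.5, the DA and the ascending aorta, was used to ask how loss of the transcriptional regulator Prdm6 alters expression in each vessel. Prdm6-deficient embryos are labelled Wnt1Cre;PRDM6f/f (the paper calls the Cre line Wnt1Cre2), in which Cre under Wnt1 control recombines the floxed gene in the neural crest lineage, so that vessel cells of other origin keep Prdm6. The analysis used 7 control DA, 5 Prdm6-deficient DA, 6 control aorta and 5 Prdm6-deficient aorta samples, and replicate 4 of the Prdm6-deficient DA, which the labels also list, was not analysed here. Control genotypes were mixed. PRDM6wt/f without Cre covers control DA replicates 1, 4, 5, 6 and 7 and control aorta replicates 1, 2, 4, 5 and 6, while control DA replicate 3 was PRDM6wt/wt, and control DA replicate 2 and control aorta replicate 3 were Wnt1Cre;PRDM6wt/wt. Prdm6-deficient DA replicates 1 and 2 were each a pool of 2 embryos. All 6 control aorta samples and 4 of the 5 Prdm6-deficient aorta samples come from embryos that also gave a DA sample. The model treats samples as independent, and fits with the embryo as a block are given below. The animal numbers fall into 2 series, and the first holds 2 control DA, 3 Prdm6-deficient DA, 1 control aorta and 2 Prdm6-deficient aorta samples. Values within the first series could therefore be given for the DA genotypes and for the Prdm6-deficient vessels alone, since it has a single control aorta sample. Total counts per sample ranged from 15163974 to 22610547. Gene positions are on mm10 (GRCm38). Levels are CPM, the standard unit of read counts relative to library size, here after TMM scaling, and a gene was called changed at an adjusted p below 0.01 with a log2 fold change beyond 0.5 either way. Because each library is bulk tissue, fewer cells of a type and less RNA per cell cannot be told apart.

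Smooth muscle genes were abundant in every library. Their summed level (8 genes, Acta2 the most abundant averaged over all libraries, as for each list below) was 13544 to 23958 CPM in control DA (median 17612), 9770 to 11797 in Prdm6-deficient DA, 8511 to 12100 in control aorta and 9321 to 11007 in Prdm6-deficient aorta. Prdm6 itself measured 84.9, 104 and 128 CPM (lowest, median, highest) in control DA, and 78.1, 70.8, 77.7, 78.5 and 58.6 CPM in Prdm6-deficient DA replicates 1, 2, 5, 6 and 7. In the aorta Prdm6 measured 95.6, 109 and 135 CPM in controls and 69.6, 70.0, 68.5, 81.2 and 61.9 CPM in Prdm6-deficient replicates 1 to 5. Genotype groups did not overlap in either vessel, and Prdm6 fell by 0.57 on the log2 scale in the DA (SE 0.11, adjusted p = 0.00055) and by 0.69 in the aorta (SE 0.11, adjusted p = 0.00017).

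Levels of the 70 genes spanned a wide range. Per kb of exon, and averaged over the 4 group means, the highest level was that of Efnb2 at 43.1 CPM per kb, followed by the secreted semaphorin Sema3f (32.2), the netrin receptor Unc5b (30.7), Plxnb2 (26.3), the ephrin-B2 receptor Ephb4 (24.5), Sema3c (22.7), Slit3 (21.8), Epha3 (21.5), Efna5 (19.1) and Efnb1 (15.5). The median over the 65 tested genes was 2.24 CPM per kb, 2.18 for the 36 tested ligands and 2.28 for the 29 tested receptors. Dcc, the attractive netrin receptor of axons, had only 0.0729 CPM per kb. Its CPM was 2.11 ± 0.929 in control DA (SD, n = 7) and at most 0.693 ± 0.691 (SD, n = 5) as the mean of any other group. Its log2 change by genotype in the DA was -1.59 (adjusted p = 0.29), and within the second series of animal numbers alone it was called (adjusted p = 0.0079), where both Prdm6-deficient DA samples, replicates 2 and 7, had 0 counts. Among the netrin receptors of the 70 genes Unc5b led, at 30.7 CPM per kb against 1.15 for Unc5c, 0.161 for Unc5a and 0.107 for Unc5d. Neo1, a netrin receptor outside the 70 genes, is given below. Robo1 (1.94 CPM per kb) was the most abundant Robo, and Slit3 exceeded Slit2 (2.24 CPM per kb) among their ligands. Per kb of the longest transcript, Slit2 stood at 5.72 CPM, below Slit3 at 25.3, Robo1 at 4.23 and Unc5c at 2.29.

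**Figure D1:**
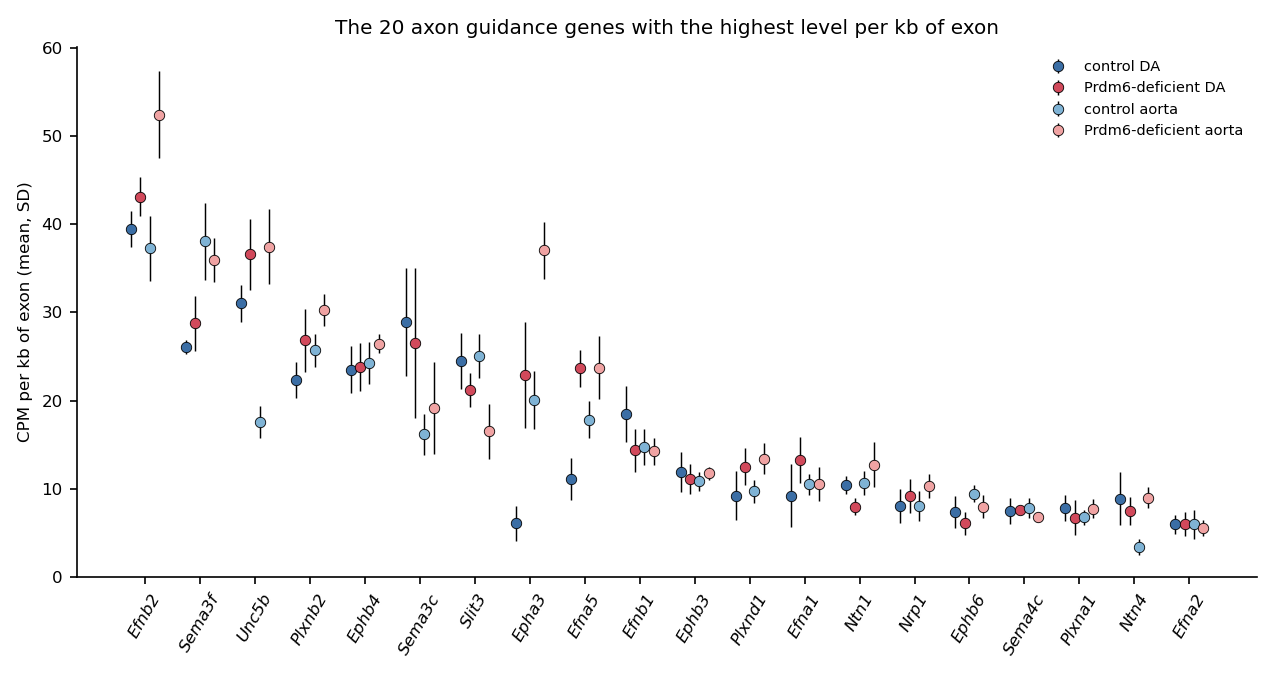
Mean level (CPM per kb of exon, y axis; bars are SD between samples) of the 20 axon guidance genes with the highest level per kb, in the 4 groups (n = 7, 5, 6 and 5). Efnb2 leads with an average of 43.1 CPM per kb, and Epha3 and Unc5b differ widely between groups.

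In the DA, 9 of the 65 tested genes changed with the loss of Prdm6 (13.8%), where 5.43% of all 16463 genes tested were called. Higher in Prdm6-deficient DA were 7 of them (2.61% of all genes), and lower were 2 (2.82% of all genes). The aorta also had 9 changed genes (13.8%), against 2.45% of all genes, with 6 higher (1.63% of all genes) and 3 lower (0.826% of all genes). Between control DA and control aorta 13 genes differed (20.0%, against 5.36% of all genes), 7 higher in the DA (3.16% of all genes) and 6 lower (2.19% of all genes). Between the Prdm6-deficient vessels 1 gene differed (0.267% of all genes were called). For 6 genes (9.23%, against 2.58% of all genes) the Prdm6 effect itself differed between the vessels. These comparisons share samples: control DA enters the DA and the control comparison, control aorta the aorta and the control comparison, and the test of the difference uses all 4 groups. In total 20 of the 65 genes (30.8%) were called somewhere, 11 ligands and 9 receptors, against 8.92% of all genes tested.

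The median log2 fold change of the 65 genes was 0.18 in the DA (0.01 over all genes) and 0.24 in the aorta (-0.001 over all genes). Receptors had a median of 0.24 in the DA and 0.37 in the aorta, and ligands 0.07 and 0.13. The 9 plexins had medians of 0.45 and 0.46, with Plxna2 alone among them called in either vessel. Plxnb3, at 0.443 ± 0.634 CPM in control DA (SD, n = 7) and 3.51 ± 3.05 in Prdm6-deficient DA (SD, n = 5), had an adjusted p of 0.035 in the DA (log2 2.95). It was called by DESeq2 (adjusted p = 0.0048) and without control DA replicate 7 (0.0089). Ntn5, a netrin with 0 counts in each Prdm6-deficient DA library and in 5 of the 7 control DA libraries, lies below these medians at any negative value. Its floor, 3 counts in a library, corresponds to 0.135 to 0.201 CPM.

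**Figure D2:**
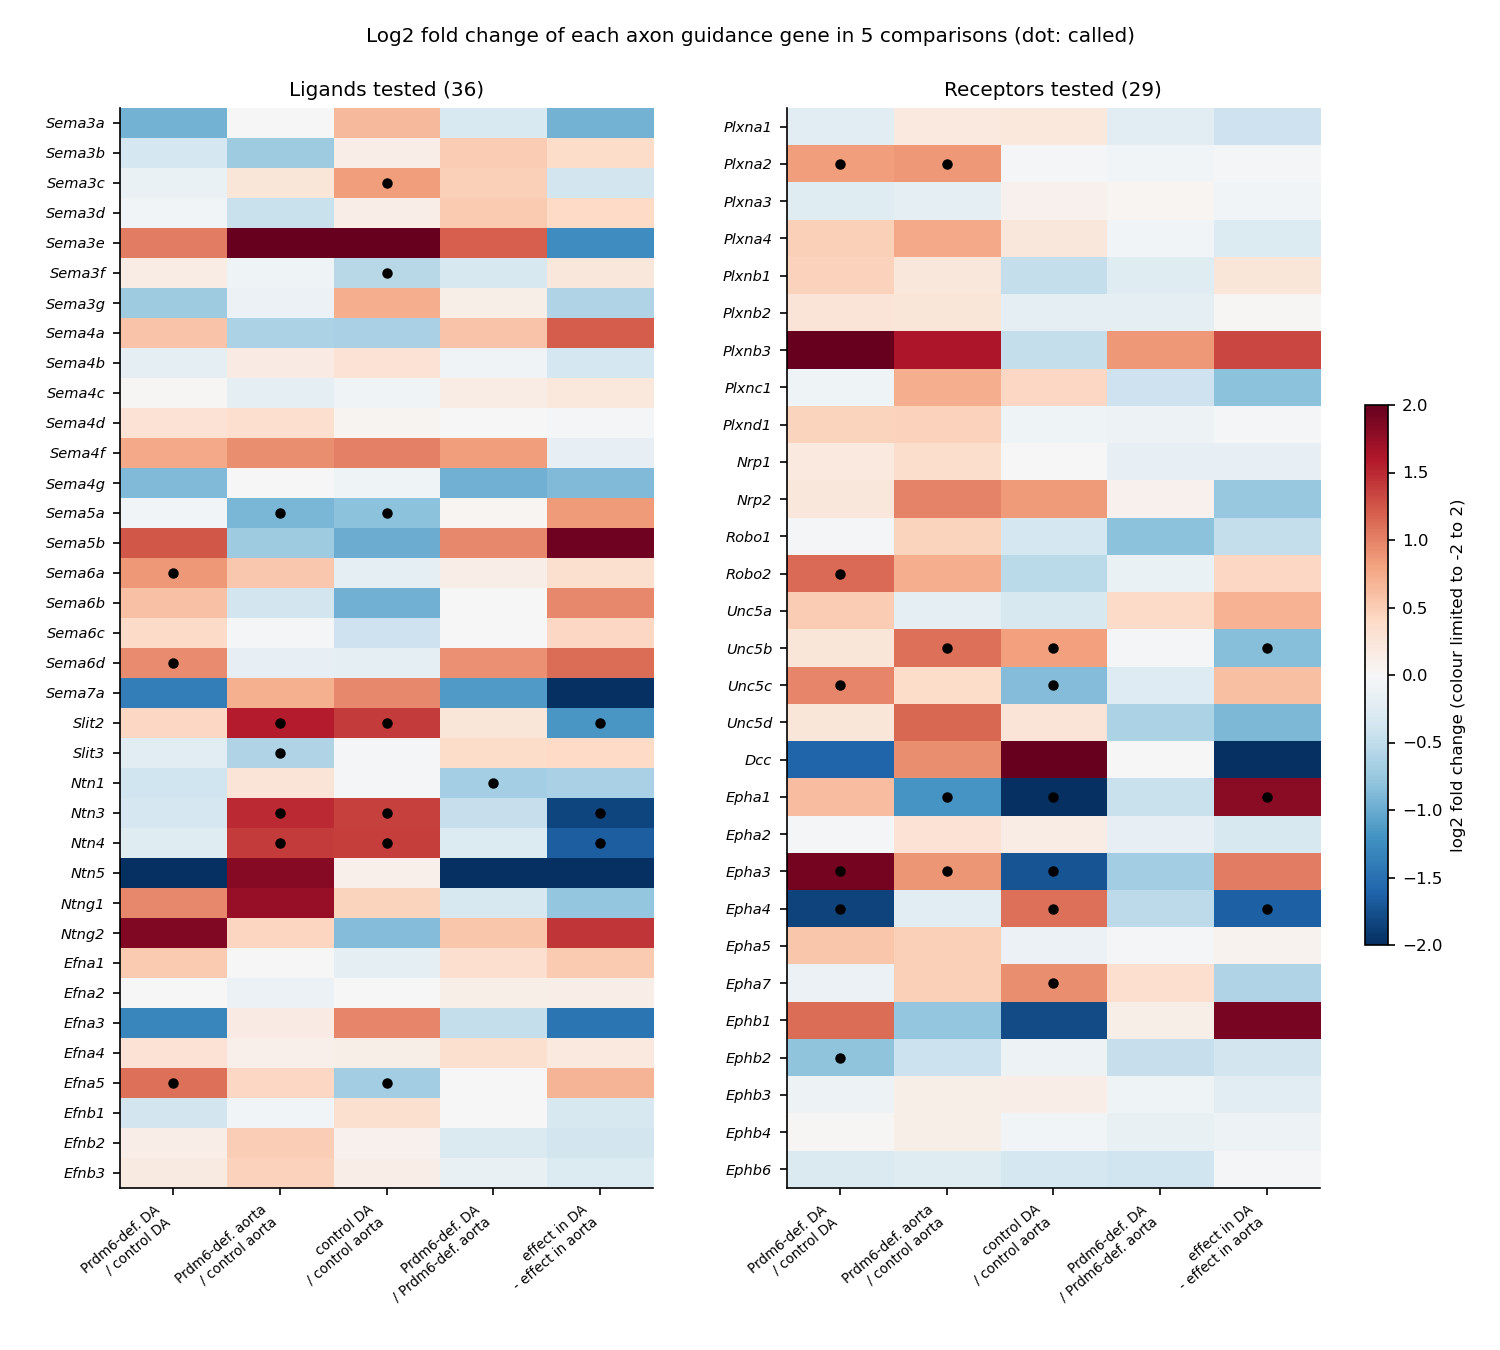
Log2 fold change of each tested axon guidance gene (colour, limited to -2 to 2) in 5 comparisons (columns), with 36 ligands on the left and 29 receptors on the right. A dot marks a called gene, and called genes number 9, 9, 13, 1 and 6 from the first to the last column.

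In Prdm6-deficient DA 3 ligands rose, the ephrin Efna5 and the membrane-bound semaphorins Sema6a and Sema6d, and no called ligand fell. Of the receptors 4 rose (Epha3, Plxna2, Robo2 and Unc5c) and 2 fell (Epha4 and Ephb2). Epha3 and Epha4 therefore moved in opposite directions, and Efna5 encodes a ligand that binds both. Within the first series of animal numbers 2 of the 9 calls were made (Efna5 and Epha3), and within the second 3 (Efna5, Epha3 and Epha4), each with fewer samples than the whole. Of all genes, 1.1% and 2.37% were called there. Without the 2 pooled Prdm6-deficient DA samples the calls on Sema6a, Sema6d, Robo2, Unc5c and Ephb2 were lost, with adjusted p-values of 0.085, 0.050, 0.011, 0.030 and 0.022. With the series of animal numbers as a covariate, 6 of the 9 calls remained, and Sema6a, Sema6d and Robo2 were lost at adjusted p-values of 0.015, 0.0102 and 0.014. When only the DA samples were fitted, Sema6a, Sema6d, Robo2 and Unc5c lost the call, and with no count filter Sema6a did.

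Efna5 (ENSMUSG00000048915.12, chr17:62604184-62881317, minus strand), a ligand tethered to the membrane by a lipid anchor, measured 32.5, 43.6 and 61.6 CPM (lowest, median, highest) in control DA. Prdm6-deficient DA replicates 1, 2, 5, 6 and 7 had 107, 87.0, 101, 88.2 and 93.5 CPM. All 5 lay above the highest control, a 2.14-fold rise (log2 1.10, SE 0.12, adjusted p = 3.2e-07). The log2 change was 1.37 within the first series of animal numbers and 0.93 within the second, and paired values given below as within the series follow that order. Sema6a, which binds class A plexins, measured 4.40, 5.45 and 10.9 CPM in control DA against 12.97, 14.5, 13.3, 9.60 and 11.1 CPM in Prdm6-deficient DA. The groups overlapped by replicate 6, and the log2 change was 0.86 (SE 0.22, adjusted p = 0.0087; 0.71 and 0.96 within the series). This call was near the threshold. It was lost, with an adjusted p of up to 0.029, on leaving out any of control DA replicates 1, 3, 5, 6 and 7, Prdm6-deficient DA replicates 1, 2, 5 and 7, control aorta replicates 1, 3 and 5, or any Prdm6-deficient aorta library. Sema6d (ENSMUSG00000027200.17, chr2:124089969-124667770, plus strand), a relative of Sema6a that also binds a class A plexin, measured 3.81, 8.34 and 16.2 CPM in control DA and 26.0, 14.9, 16.0, 14.9 and 21.3 CPM in Prdm6-deficient DA. The lower Prdm6-deficient samples fell within the control range, and the log2 change was 0.95 (SE 0.23, adjusted p = 0.0062; 0.88 and 0.94 within the series). Without control DA replicate 3, 5 or 6 or Prdm6-deficient DA replicate 1 or 7 the call was lost (adjusted p up to 0.033).

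Among the receptors Epha3 (ENSMUSG00000052504.7, chr16:63543534-63864175, minus strand), a receptor tyrosine kinase for ephrin-A ligands, had the largest called change. Control DA ranged from 19.8 to 73.8 CPM (median 57.5), and Prdm6-deficient DA had 231, 174, 260, 207 and 124 CPM in replicates 1, 2, 5, 6 and 7. The lowest Prdm6-deficient sample was above the highest control. Epha3 rose 3.77-fold (log2 1.91, SE 0.20, adjusted p = 1.5e-07, with 1.99 and 1.56 within the series). Epha4 (ENSMUSG00000026235.14, chr1:77367185-77515088, minus strand), which binds ephrins of both classes, went the other way. It measured 16.9, 23.6 and 28.0 CPM in control DA and 6.73, 5.57, 5.50, 9.03 and 5.01 CPM in Prdm6-deficient DA. No sample of either group reached the other, and the log2 change was -1.86 (SE 0.21, adjusted p = 3.7e-07, with -1.58 and -2.17 within the series). The ephrin-B receptor Ephb2 (ENSMUSG00000028664.14, chr4:136647539-136835988, minus strand) measured 45.5, 70.0 and 102 CPM in control DA and 34.2, 36.0, 53.6, 38.8 and 43.8 CPM in Prdm6-deficient DA. Only replicate 5 reached into the control range, and Ephb2 fell by 0.80 on the log2 scale (SE 0.15, adjusted p = 0.00058, with -1.01 and -0.74 within the series).

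The remaining receptors that rose in the DA belong to other families. Plxna2 (ENSMUSG00000026640.12, chr1:194618218-194816869, plus strand), a receptor for class 6 semaphorins such as Sema6a, measured 25.3, 49.5 and 58.8 CPM in control DA and 77.6, 61.8, 99.3, 86.9 and 78.5 CPM in Prdm6-deficient DA. The groups did not overlap (log2 0.84, SE 0.15, adjusted p = 0.00031, with 0.81 and 0.70 within the series). Robo2 (ENSMUSG00000052516.19, chr16:73891839-74411825, minus strand), a Slit receptor, was low throughout, at 1.84, 4.20 and 5.35 CPM in control DA and 6.61, 7.72, 9.62, 10.6 and 6.97 CPM in Prdm6-deficient DA. All 5 Prdm6-deficient values exceeded the control range (log2 1.14, SE 0.27, adjusted p = 0.0045, with 1.57 and 0.85 within the series). The call was lost without control DA replicate 3 or Prdm6-deficient DA replicate 5 or 6 (adjusted p up to 0.019). Unc5c (ENSMUSG00000059921.15, chr3:141465216-141834924, plus strand), a repulsive netrin receptor, measured 5.81, 13.2 and 17.8 CPM in control DA and 24.5, 26.9, 28.7, 22.0 and 19.7 CPM in Prdm6-deficient DA. The 5 Prdm6-deficient samples stood above the 7 controls (log2 0.98, SE 0.22, adjusted p = 0.0033; 0.82 and 0.997 within the series). Without Prdm6-deficient DA replicate 2 or 5 the adjusted p was up to 0.013. Plxnb1 met the limit on p alone (log2 0.46, adjusted p = 0.0061), and without control DA replicate 4 or 6 or Prdm6-deficient DA replicate 7 its change was up to 0.54.

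**Figure D3:**
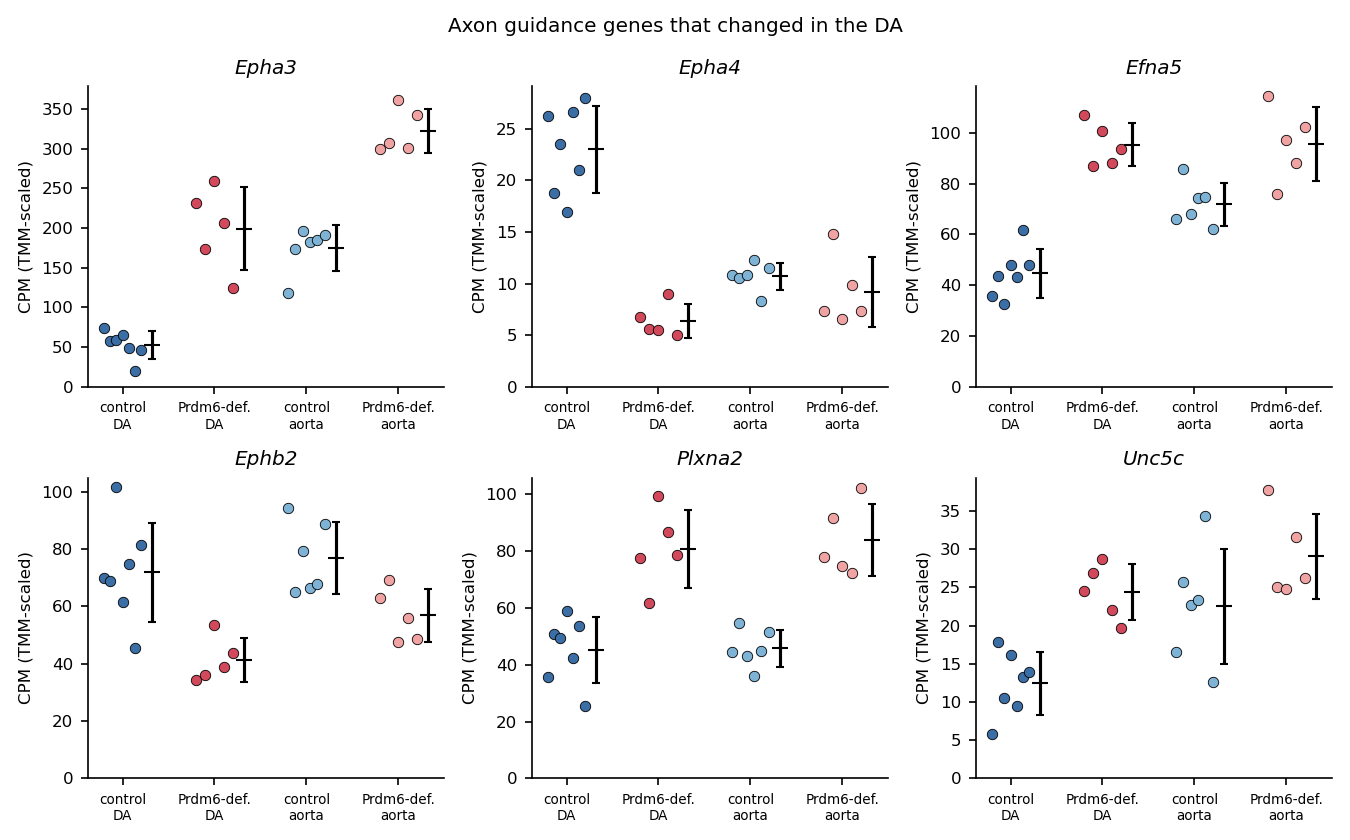
CPM of 6 axon guidance genes that changed in the DA, by sample (points, y axis from 0) in the 4 groups (x axis), with mean and SD. In Prdm6-deficient DA, Epha3 lies at 124 to 260 CPM against at most 73.8 in control DA, and Epha4 at no more than 9.03 against at least 16.9.

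Of the 12 marker lists, 11 are described here or further below. Smooth muscle genes fell for 6 of 8, with the summed level given above separating the groups (exact permutation test over samples, 2-sided, p = 0.00253, the smallest that 5 against 7 samples can give, 0.0227 after adjustment over 36 such tests). Melanocyte genes fell for 4 of 6, and their sum was 32.2 to 229 CPM in control DA (Dct the most abundant) and 2.44 to 4.96 CPM in Prdm6-deficient DA (exact permutation p = 0.00253, adjusted 0.0227). The sum of 10 neuronal genes was 8.34, 21.2 and 28.7 CPM in control DA and 50.2, 36.3, 40.2, 44.4 and 20.9 CPM in Prdm6-deficient DA (exact permutation p = 0.0126, adjusted 0.0505), and of that list only Elavl4 was called (log2 2.43, adjusted p = 5.2e-05). Endothelial sums had medians of 853 CPM in control DA and 987 in Prdm6-deficient DA, leukocyte sums 63.3 and 77.1, and mesothelial sums 129 and 183. Their exact permutation p-values were 0.237, 0.604 and 0.566 (adjusted 0.342, 0.639 and 0.617), and no gene of these 3 lists was called in the DA. No gene of the lists in this paragraph was at 0 in every library. The part of these cells, or of the cell type whose list is not described, in the changes of Efna5, Epha3, Epha4 and the other guidance genes was not tested.

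In Prdm6-deficient aorta the ligands Slit2, Ntn3 and Ntn4 and the receptors Unc5b, Plxna2 and Epha3 rose. The ligands Sema5a and Slit3 and the receptor Epha1 fell. In none of the 9 genes did the Prdm6-deficient and the control aorta samples overlap, as in 95.5% of all 404 genes called in the aorta. Within the second series, where 1.28% of all genes were called, 5 of the 9 were called, without Plxna2, Slit3, Epha1 and Epha3 (adjusted p = 0.011, 0.023, 0.046 and 0.086). With the series as a covariate Epha1 and Epha3 lost the call (adjusted p = 0.016 and 0.013), and likewise without the Cre-carrying controls. Promoter windows are shown for Slit2, Ntn3, Ntn4 and Unc5b, which rose in the aorta, and for Epha3 and Epha4, which changed in opposite directions in the DA. These windows, from RefSeq on GRCm38.p6, run from 250 bases before to 50 after the start that RefSeq annotates. They read 5′ to 3′ in the direction of the gene. The gene positions in the text come from GENCODE, and the 2 annotations differ in some starts. The Ntn4 window lies wholly inside the GENCODE gene, and the RefSeq starts of Slit2 and Ntn3 also lie inside theirs. Their positions are chr5:47982905-47983204 (plus strand) for Slit2, chr17:24209338-24209637 (minus) for Ntn3, chr10:93640799-93641098 (plus) for Ntn4, chr10:60831532-60831831 (minus) for Unc5b, chr16:63864126-63864425 (minus) for Epha3 and chr1:77515039-77515338 (minus) for Epha4. Capitals mark matches to the AP-2 letters GCCNNNGGC or, on either strand, the TEAD letters GGAATG.
Slit2: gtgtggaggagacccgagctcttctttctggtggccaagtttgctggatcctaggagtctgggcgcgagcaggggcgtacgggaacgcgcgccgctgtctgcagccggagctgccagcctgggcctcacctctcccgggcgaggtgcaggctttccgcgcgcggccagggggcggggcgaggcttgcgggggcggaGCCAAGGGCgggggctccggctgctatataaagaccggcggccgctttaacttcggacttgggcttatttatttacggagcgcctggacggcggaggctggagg
Ntn3: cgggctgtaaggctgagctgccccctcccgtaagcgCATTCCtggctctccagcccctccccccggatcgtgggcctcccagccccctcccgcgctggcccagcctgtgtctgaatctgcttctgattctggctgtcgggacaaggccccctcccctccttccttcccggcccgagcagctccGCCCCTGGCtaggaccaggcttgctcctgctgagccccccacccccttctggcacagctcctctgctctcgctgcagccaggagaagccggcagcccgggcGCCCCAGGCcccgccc
Ntn4: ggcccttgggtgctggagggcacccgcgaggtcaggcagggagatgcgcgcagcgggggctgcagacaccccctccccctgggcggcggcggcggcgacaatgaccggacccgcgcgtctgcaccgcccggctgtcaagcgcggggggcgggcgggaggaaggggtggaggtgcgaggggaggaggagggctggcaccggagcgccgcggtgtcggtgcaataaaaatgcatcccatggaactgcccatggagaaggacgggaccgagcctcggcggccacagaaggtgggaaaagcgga
Unc5b: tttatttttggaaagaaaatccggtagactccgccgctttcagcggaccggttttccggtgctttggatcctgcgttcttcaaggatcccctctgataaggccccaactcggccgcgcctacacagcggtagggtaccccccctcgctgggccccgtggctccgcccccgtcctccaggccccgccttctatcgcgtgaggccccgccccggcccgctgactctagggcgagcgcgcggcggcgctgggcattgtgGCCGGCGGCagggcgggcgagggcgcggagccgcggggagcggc
Epha3: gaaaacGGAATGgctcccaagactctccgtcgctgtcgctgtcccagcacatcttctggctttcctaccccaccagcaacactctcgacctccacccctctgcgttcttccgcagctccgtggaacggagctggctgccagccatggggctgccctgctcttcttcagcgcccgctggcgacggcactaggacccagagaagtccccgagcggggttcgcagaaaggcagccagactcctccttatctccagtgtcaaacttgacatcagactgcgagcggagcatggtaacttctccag
Epha4: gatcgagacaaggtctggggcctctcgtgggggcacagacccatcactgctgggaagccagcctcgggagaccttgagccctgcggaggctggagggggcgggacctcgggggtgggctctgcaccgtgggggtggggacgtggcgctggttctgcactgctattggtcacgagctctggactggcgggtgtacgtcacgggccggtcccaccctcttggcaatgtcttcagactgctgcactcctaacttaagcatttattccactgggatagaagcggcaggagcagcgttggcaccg

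All 6 windows were rich in G and C, at 68.0% (Slit2), 71.3% (Ntn3), 72.0% (Ntn4), 69.7% (Unc5b), 60.7% (Epha3) and 64.0% (Epha4), where the median was 64.2% over 76 windows of axon guidance genes and 53.0% over all 32544 windows. AP-2 letters, named for factors active in the neural crest, occurred in Slit2 (at -54 from the start), Ntn3 (at -67 and 35) and Unc5b (at 7). The palindrome reads the same on both strands, and 16.7% of all windows and 26.3% of the axon guidance windows hold it. TEAD letters occurred in Ntn3 (at -214, minus strand) and Epha3 (at -244), against 14.6% of all and 13.2% of axon guidance windows. Neither the AP-1 letters TGANTCA (7.79% of all windows, 3.95% of axon guidance windows) nor the CArG box of smooth muscle genes (1.64% and 2.63%) occurred in the 6 windows on either strand. Windows were available for 60 of the 70 genes, and not for Sema3b, Sema3f, Sema6a, Plxna1, Plxna4, Slit1, Ntn1, Unc5d, Dcc and Efnb3. A match describes letters and is no evidence of binding.

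Slit2 (ENSMUSG00000031558.15, chr5:47983138-48307733, plus strand), a secreted ligand of Robo receptors, measured 16.6, 22.7 and 26.6 CPM (lowest, median, highest) in control aorta. Prdm6-deficient aorta replicates 1 to 5 had 61.9, 57.5, 79.2, 63.5 and 71.3 CPM. Every Prdm6-deficient value was above the highest control, a 2.96-fold rise (log2 1.57, SE 0.19, adjusted p = 2.8e-06; 1.50 within the second series of animal numbers, the one that allows the comparison). Its relative Slit3 (ENSMUSG00000056427.10, chr11:35121224-35708507, plus strand) went down, from 130, 150 and 173 CPM in control aorta to 114, 90.6, 82.9, 86.6 and 126 CPM in Prdm6-deficient aorta. The highest Prdm6-deficient sample stayed below the lowest control (log2 -0.60, SE 0.11, adjusted p = 0.00054). Within the second series the change of Slit3 was -0.47 with an adjusted p of 0.023, so that the call was not made there. Ntn3 (ENSMUSG00000117406.1, chr17:24203848-24209531, minus strand), a secreted netrin, measured 6.11, 7.45 and 11.04 CPM in control aorta and 22.9, 22.5, 24.2, 20.7 and 21.4 CPM in Prdm6-deficient aorta. These groups were far apart with little spread in the second (log2 1.50, SE 0.22, adjusted p = 4.5e-05, with 1.44 within the second series). Exons of Ntn3 share 139 bases with the antisense gene BC028777 and 89 bases with Tbc1d24.

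Ntn4 (ENSMUSG00000020019.4, chr10:93640681-93747207, plus strand), a netrin that also binds laminin in basement membranes, measured 8.38, 12.6 and 17.9 CPM in control aorta and 34.5, 32.5, 29.7, 30.7 and 40.8 CPM in Prdm6-deficient aorta. Again no sample of one genotype reached the other (log2 1.40, SE 0.22, adjusted p = 8.8e-05, with 1.44 within the second series). Sema5a (ENSMUSG00000022231.10, chr15:32244810-32696341, plus strand), a transmembrane semaphorin with thrombospondin repeats, measured 43.9, 60.6 and 73.6 CPM in control aorta and 37.8, 27.4, 21.7, 41.9 and 30.1 CPM in Prdm6-deficient aorta. Replicates 1 and 4 came closest to the controls without reaching them (log2 -0.91, SE 0.16, adjusted p = 0.00056, with -0.92 within the second series). Efnb2, the arterial ephrin, ranged from 223 to 298 CPM in control aorta (median 254) and measured 400, 377, 309, 348 and 363 CPM in Prdm6-deficient aorta. The groups did not overlap, and the log2 change of 0.49 (SE 0.07, adjusted p = 4.2e-05) missed the fold limit. It passed that limit, at up to 0.54, without control aorta replicate 5 or 6 or Prdm6-deficient aorta replicate 3 or 4, and was 0.57 within the second series.

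Among the aortic receptors Unc5b (ENSMUSG00000020099.8, chr10:60762593-60831581, minus strand), which binds netrins and restrains vessel sprouting, had the clearest separation. It measured 94.9, 107 and 126 CPM in control aorta and 234, 217, 228, 280 and 214 CPM in Prdm6-deficient aorta. The rise was 2.13-fold (log2 1.09, SE 0.09, adjusted p = 2.5e-09, with 1.01 within the second series). Plxna2 measured 35.9, 44.6 and 54.7 CPM in control aorta and 78.0, 91.8, 74.9, 72.3 and 102 CPM in Prdm6-deficient aorta. Its groups were separate, as in the DA (log2 0.87, SE 0.16, adjusted p = 0.00064; 0.97 within the second series, where an adjusted p of 0.011 missed the threshold). Epha3 measured 118, 183 and 197 CPM in control aorta and 299, 307, 362, 301 and 342 CPM in Prdm6-deficient aorta. Despite the full separation the adjusted p was 0.0079 (log2 0.89, SE 0.21; 0.90 within the second series). Without Prdm6-deficient DA replicate 6, or any of the 6 control or 5 Prdm6-deficient aorta libraries, the call on Epha3 was lost, with an adjusted p of up to 0.026 and log2 changes from 0.79 to 0.92. The aortic call on Epha3 was also lost without the pooled samples.

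Epha1 (ENSMUSG00000029859.6, chr6:42358487-42373268, minus strand), an ephrin-A receptor best known from epithelia, measured 20.4, 23.9 and 28.9 CPM in control aorta and 10.4, 8.57, 9.70, 12.1 and 13.2 CPM in Prdm6-deficient aorta. The groups lay well apart (log2 -1.18, SE 0.28, adjusted p = 0.0088, with -1.20 within the second series). Leaving out control DA replicate 1, Prdm6-deficient DA replicate 6, or any control or Prdm6-deficient aorta library ended the call, with an adjusted p of up to 0.033 and log2 changes from -1.27 to -1.11. Exons of Epha1 share 236 bases (6.01%) with Zyx on the opposite strand, and the defaults of RSEM, which the methods name, do not use the strand.

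**Figure D4:**
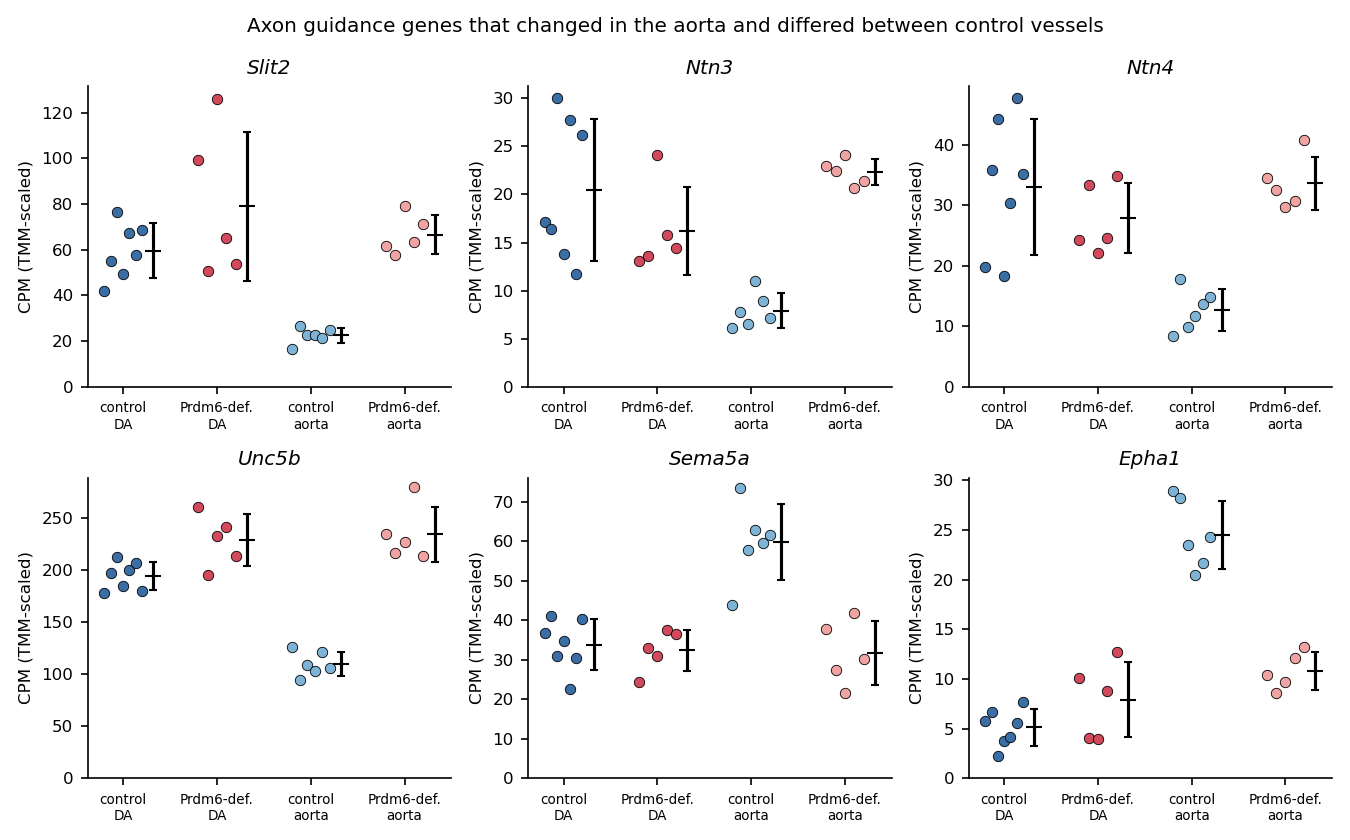
CPM of 6 axon guidance genes that changed in the aorta, by sample (points, y axis from 0) in the 4 groups (x axis), with mean and SD. For Slit2, Ntn3, Ntn4 and Unc5b the control aorta is the lowest group, and for Sema5a and Epha1 the highest.

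For the aortic genotype the summed level of 8 endothelial genes, led by Pecam1, was 597, 729 and 962 CPM in control aorta and 1180, 1218, 940, 1087 and 1060 CPM in Prdm6-deficient aorta (exact permutation test, 2-sided, p = 0.00866, adjusted 0.0390), and 3 of the 8 (Tek, Tie1 and Emcn) were called higher. Neuronal genes summed to 21.0, 25.3 and 37.8 CPM in control aorta and 47.8, 43.1, 86.7, 59.5 and 68.3 CPM in Prdm6-deficient aorta (exact permutation p = 0.00433, the smallest for 5 against 6 samples, adjusted 0.0260). Of that list only Elavl4 was called, with a mean of 4.66 ± 1.22 CPM in control (SD, n = 6) and 37.6 ± 14.9 CPM in Prdm6-deficient aorta (SD, n = 5). Stmn2 averaged 15.3 ± 2.45 (SD, n = 6) and 16.4 ± 4.65 CPM (SD, n = 5), so that Elavl4 made up most of the difference in the sum, and Elavl3, Th, Dbh and Chat were too low to test. Leukocyte genes (Lyz2 the most abundant) summed to 64.6, 90.2 and 132 CPM in control and 49.3, 35.0, 65.7, 58.6 and 42.8 CPM in Prdm6-deficient aorta (exact permutation p = 0.00866, adjusted 0.0390). Mesothelial genes (Upk3b the most abundant) summed to 27.9, 49.95 and 91.0 CPM in control and 18.9, 10.995, 2.36, 23.4 and 3.41 CPM in Prdm6-deficient aorta (exact permutation p = 0.00433, adjusted 0.0260). The part of these cell types in the aortic changes of Unc5b, Ntn4, Slit2, Epha1 and the others was not tested.

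Sums of 5 further marker lists gave no adjusted p below 0.05 for either genotype comparison. Arterial endothelial genes (Gja5 the most abundant) had medians of 110 CPM in control DA, 105 in Prdm6-deficient DA, 106 in control aorta and 105 in Prdm6-deficient aorta. Fibroblast genes (Col1a1) had medians of 3783, 4599, 4353 and 3592 CPM in the same order, epithelial genes (Krt18) 38.9, 29.4, 17.97 and 15.7 CPM, cardiomyocyte genes (Tnnt2) 91.3, 167, 72.6 and 75.1 CPM, and erythroid genes (Hbb-bs) 14748, 21338, 24679 and 14236 CPM. Single libraries stood out: erythroid genes summed to 79640 CPM in Prdm6-deficient DA replicate 1 and 79217 CPM in control aorta replicate 4, and cardiomyocyte genes to 1044 CPM in control DA replicate 1. Single genes of these lists were called higher in Prdm6-deficient samples: the fibroblast gene Lum in the DA (log2 1.44, adjusted p = 8.9e-06) and in the aorta (1.61, adjusted p = 8.6e-06), and the arterial gene Sox17 in the aorta (0.86, adjusted p = 0.0066). Without both of the libraries high in erythroid genes, 6 axon guidance genes were called in the DA (4.64% of all genes) and 7 in the aorta (2.17% of all genes). The calls lost were Sema6a, Sema6d and Unc5c in the DA, and Epha1 and Epha3 in the aorta. For the difference of the Prdm6 effect between the vessels 5 genes were called (2.43% of all genes), and Epha1 was lost.

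Control DA and control aorta already differed in 13 axon guidance genes. Higher in control DA were the ligands Sema3c, Slit2, Ntn3 and Ntn4 and the receptors Unc5b, Epha4 and Epha7. Lower in control DA were the ligands Sema3f, Sema5a and Efna5 and the receptors Unc5c, Epha1 and Epha3. The last value in each bracket is the log2 change within the second series of animal numbers. Slit2 measured 42.2, 57.5 and 76.6 CPM in control DA, all above the highest control aorta value of 26.6 CPM (log2 1.41, SE 0.18, adjusted p = 2.4e-06, with 1.35 within the second series). Ntn3 measured 11.7, 17.1 and 30.1 CPM in control DA, against at most 11.04 CPM in control aorta (log2 1.37, SE 0.21, adjusted p = 2.9e-05; 1.24). Ntn4 measured 18.3, 35.2 and 47.8 CPM against at most 17.9 CPM (log2 1.38, SE 0.20, adjusted p = 2.1e-05; 1.19). Their relatives Slit3 and Ntn1 had no call (log2 -0.03 for each, adjusted p = 0.90 and 0.93). Sema3c (ENSMUSG00000028780.13, chr5:17574281-17730268, plus strand) measured 153, 231 and 261 CPM in control DA and 91.2, 116 and 139 CPM in control aorta, without overlap (log2 0.84, SE 0.18, adjusted p = 0.0015; 0.82).

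Sema3f (ENSMUSG00000034684.12, chr9:107681500-107710475, minus strand), which signals through Nrp2, was tightly spread at 130, 135 and 142 CPM in control DA and measured 168, 191 and 232 CPM in control aorta. The groups were separate (log2 -0.55, SE 0.07, adjusted p = 3.7e-06, with -0.52 within the second series), although without control aorta replicate 1 the change of -0.50 no longer passed the fold limit. Sema5a was lower in control DA, at 22.7, 34.8 and 41.2 CPM against at least 43.9 CPM in control aorta (log2 -0.82, SE 0.15, adjusted p = 0.00025; -0.87). Efna5 measured 62.1, 71.2 and 85.7 CPM in control aorta, just above the DA range that ended at 61.6 CPM (log2 -0.69, SE 0.12, adjusted p = 0.00012; -0.62).

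Among the called genes the largest gaps between the control vessels were those of Epha1 and Epha3. Without a call, Sema3e (log2 2.43, adjusted p = 0.023) and Dcc (2.55, adjusted p = 0.059) had larger changes, and DESeq2 called both (adjusted p = 0.0011 and 0.0067). Sema3e was also called without control DA replicate 6 or control aorta replicate 2, and Dcc when only the control samples were fitted. Epha1 measured 2.28, 5.57 and 7.71 CPM in control DA against at least 20.4 CPM in control aorta (log2 -2.25, SE 0.26, adjusted p = 4.9e-07, with -2.19 within the second series). Epha3 in control DA reached 73.8 CPM, below the lowest control aorta value of 118 CPM (log2 -1.72, SE 0.19, adjusted p = 3.4e-07; -1.75). Epha4 had the reverse order, at 8.32, 10.8 and 12.2 CPM in control aorta and at least 16.9 CPM in control DA (log2 1.10, SE 0.19, adjusted p = 0.00012; 1.15). Ephrin-A receptors thus had opposite orders between the vessels. Epha7 (ENSMUSG00000028289.12, chr4:28813131-28967499, plus strand), another ephrin-A receptor, measured 16.4, 26.2 and 33.6 CPM in control DA and 10.05, 13.7 and 16.1 CPM in control aorta, just without overlap (log2 0.94, SE 0.14, adjusted p = 3.0e-05; 0.99). Unc5b was at 179, 197 and 212 CPM in control DA, far above the aorta's 126 CPM (log2 0.82, SE 0.08, adjusted p = 3.4e-08; 0.78). Unc5c had the opposite sign, with 12.6, 22.98 and 34.3 CPM in control aorta overlapping the DA range (log2 -0.86, SE 0.21, adjusted p = 0.0067; -0.95). Without control DA replicate 1, 3 or 5 or control aorta replicate 2, 3, 4 or 5, Unc5c was not called (adjusted p up to 0.032). It also lost the call within the second series (adjusted p = 0.038), with each animal or replicate number as a block, when only the control samples were fitted, without the pooled samples, and without the 2 libraries high in erythroid genes. Between the control vessels smooth muscle sums also differed (exact permutation p = 0.00117, the smallest for 6 against 7 samples, adjusted 0.0210), as did melanocyte sums at 32.2 to 229 CPM in the DA and 2.17 to 14.8 CPM in the aorta (same p and adjusted p), and their part was not tested.

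The difference of the Prdm6 effect between the vessels was called for Slit2, Ntn3, Ntn4, Unc5b, Epha1 and Epha4. A negative value means a lower log2 change in the DA than in the aorta. For Ntn3 the change was -0.33 in the DA (adjusted p = 0.38) and 1.50 in the aorta, a difference of -1.83 (SE 0.31, adjusted p = 0.00033; -1.91 within the second series, where its adjusted p was 0.015). Ntn4 gave -0.25 in the DA (adjusted p = 0.54) and 1.40 in the aorta, a difference of -1.65 (SE 0.30, adjusted p = 0.00083; -1.27 within the second series, adjusted p = 0.13). In Prdm6-deficient DA Ntn3 measured 13.1, 13.6, 24.1, 15.8 and 14.4 CPM and Ntn4 24.3, 33.3, 22.2, 24.7 and 34.9 CPM, all inside the range of control DA. Slit2 in Prdm6-deficient DA measured 99.3, 50.8, 126, 65.1 and 53.6 CPM, overlapping control DA (log2 0.41, adjusted p = 0.16). Its difference was -1.16 (SE 0.26, adjusted p = 0.0066; -1.63 within the second series). That call on Slit2 was lost without control DA replicate 3, 5 or 7, Prdm6-deficient DA replicate 2, 6 or 7, control aorta replicate 1, 3 or 5, or Prdm6-deficient aorta replicate 3, 4 or 5 (adjusted p up to 0.017). It was also lost without the pooled samples, without the Cre-carrying controls and with the replicate number as a block.

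Unc5b measured 261, 196, 233, 241 and 214 CPM in Prdm6-deficient DA, 4 of the 5 above the highest control of 212 CPM (log2 0.24, adjusted p = 0.060), and its effect differed between vessels by -0.86 (SE 0.12, adjusted p = 3.7e-05; -0.90 within the second series). Epha1 measured 10.1, 4.09, 3.99, 8.80 and 12.7 CPM in Prdm6-deficient DA, partly above the control range (log2 0.62, adjusted p = 0.15). Its effect was higher in the DA than in the aorta by 1.80 (SE 0.38, adjusted p = 0.0038; 1.83 within the second series, adjusted p = 0.037). Without Prdm6-deficient DA replicate 7 or Prdm6-deficient aorta replicate 2 the adjusted p for Epha1 was up to 0.013. This call on Epha1 was also lost without the 2 libraries high in erythroid genes. Epha4 fell in the DA, while in Prdm6-deficient aorta it measured 7.37, 14.8, 6.60, 9.82 and 7.32 CPM around the control range (log2 -0.22, adjusted p = 0.78). The difference for Epha4 was -1.63 (SE 0.28, adjusted p = 0.00046; -2.05 within the second series). With the embryo as a block the differences for Epha1 (1.28, adjusted p = 0.055) and Epha4 (-1.72, adjusted p = 0.012) lost the call, and those for Slit2, Ntn3, Ntn4 and Unc5b kept it. The difference was also called for 5 of the 8 smooth muscle marker genes, all negative. Among fibroblast genes it was called for Dpt (1.72, adjusted p = 0.0022). The part of these cells in the differences was not tested.

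For other genes a call in a single vessel is not a shown difference between vessels. Sema5a had a difference of 0.85 (adjusted p = 0.022), Efna5 0.68 (adjusted p = 0.018), Sema6d 1.12 (adjusted p = 0.051), Slit3 0.40 (adjusted p = 0.14) and Ephb2 -0.37 (adjusted p = 0.46). Epha3, called in both vessels, had a difference of 1.03 (adjusted p = 0.033). Sema5a passed without Prdm6-deficient aorta replicate 4, and Efna5 and Epha3 without control DA replicate 6, when their differences were 0.97, 0.78 and 1.16. DESeq2 called the differences for Sema5a, Efna5 and Ntn1 as well (adjusted p = 0.0067, 0.0053 and 0.0046). Plxna2 had nearly equal changes, 0.84 in the DA and 0.87 in the aorta, with a difference of -0.03 (SE 0.22, adjusted p = 0.97).

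**Figure D5:**
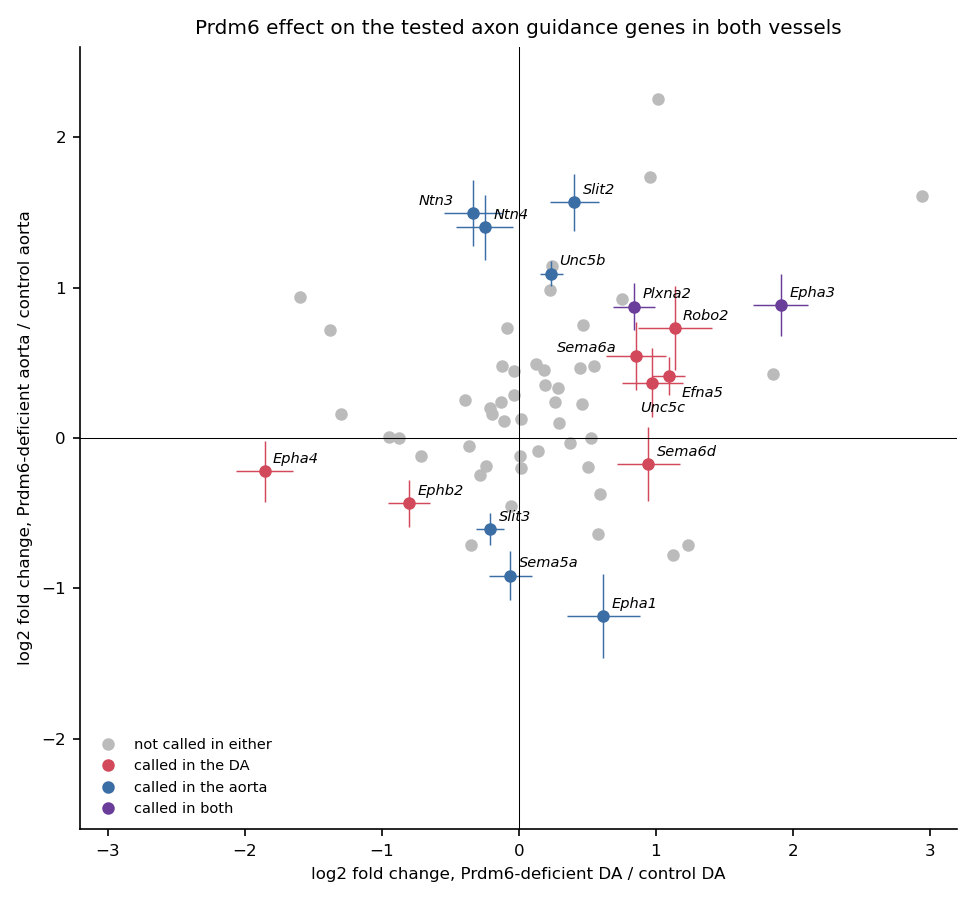
Log2 fold change by genotype in the DA (x axis) and in the aorta (y axis) for 64 of the 65 tested axon guidance genes, with SE bars on called genes; Ntn5, without counts in Prdm6-deficient DA, lies outside the axes. Ntn3, Ntn4, Slit2 and Unc5b stand high on the aortic axis, and Epha4 stands far left on the DA axis. Both comparisons use their own controls, fitted in 1 model.

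Between the Prdm6-deficient vessels the called gene was Ntn1 (ENSMUSG00000020902.12, chr11:68209364-68400823, minus strand), the founding secreted netrin. It measured 46.0, 50.9, 46.0, 46.3 and 60.1 CPM in Prdm6-deficient DA and 77.5, 85.4, 75.8, 102 and 57.8 CPM in Prdm6-deficient aorta. DA replicate 7 and aorta replicate 5 overlapped, and Ntn1 was lower in the DA by a log2 change of -0.68 (SE 0.12, adjusted p = 0.0040; -0.95 and -0.41 within the series, with adjusted p-values of 0.15 and 0.37). The call was lost without Prdm6-deficient DA replicate 1, 2, 5 or 6 or Prdm6-deficient aorta replicate 1, 2 or 4 (adjusted p up to 0.016), and with the embryo as a block (log2 -0.47, adjusted p = 0.30). In control DA Ntn1 measured 56.1, 69.8 and 71.2 CPM and in control aorta 54.0, 66.8 and 79.5 CPM, and its genotype changes were -0.39 (adjusted p = 0.020) and 0.25 (adjusted p = 0.29), with a difference of -0.65 (adjusted p = 0.014). That difference passed the threshold without Prdm6-deficient DA replicate 7, control aorta replicate 6 or Prdm6-deficient aorta replicate 5, when it was as low as -0.74. The gaps seen between the control vessels measured 0.25 for Slit2 (adjusted p = 0.77), -0.46 for Ntn3 (0.51), -0.27 for Ntn4 (0.78), -0.04 for Unc5b (0.96), -0.45 for Epha1 (0.67), -0.69 for Epha3 (0.16), -0.53 for Epha4 (0.34), -0.01 for Efna5 (0.99), 0.47 for Sema3c (0.38), -0.32 for Sema3f (0.057), 0.03 for Sema5a (0.98), -0.25 for Unc5c (0.83) and 0.34 for Epha7 (0.47) between the Prdm6-deficient vessels, on the log2 scale.

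Some binding partners of called genes had no call of their own. Of the Robo receptors that bind Slit2 and Slit3, Robo1 measured 25.7 ± 7.86 CPM in control DA (SD, n = 7), 25.1 ± 5.42 in Prdm6-deficient DA (SD, n = 5), 32.7 ± 5.43 in control aorta (SD, n = 6) and 44.5 ± 8.68 in Prdm6-deficient aorta (SD, n = 5), with log2 changes of -0.04 and 0.44 by genotype. Between the Prdm6-deficient vessels Robo1 had a change of -0.83 (adjusted p = 0.035), which DESeq2 called (adjusted p = 0.0049). Of the neuropilins that semaphorins use, Nrp1 had changes of 0.19 in the DA and 0.35 in the aorta, and Nrp2 0.23 and 0.99 (adjusted p = 0.67 and 0.033). Nrp2 averaged 8.51 ± 2.39 CPM in control aorta (SD, n = 6) and 16.9 ± 4.60 in Prdm6-deficient aorta (SD, n = 5). Among the plexins that Sema6a and Sema6d use, Plxna4 had changes of 0.47 (adjusted p = 0.085) and 0.75 (adjusted p = 0.012), and Plxna1 of -0.21 and 0.20. The aortic change of Plxna4 passed without Prdm6-deficient DA replicate 2, control aorta replicate 5 or Prdm6-deficient aorta replicate 3, when it was up to 0.85. Plxna4 was also called in the aorta with DESeq2 (adjusted p = 0.0021), with no count filter, without the pooled samples and when only the aorta samples were fitted. In the aorta Nrp2 was called with DESeq2 (adjusted p = 0.0099) and when only the aorta samples were fitted. Between the control vessels Nrp2 was called with DESeq2 and without control DA replicate 6. Plxnd1, an endothelial receptor of secreted semaphorins, averaged 67.0 ± 20.3 CPM in control DA (SD, n = 7) and 91.4 ± 15.1 in Prdm6-deficient DA (SD, n = 5), with changes of 0.45 in the DA and 0.46 in the aorta (adjusted p = 0.072 and 0.13).

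Ephrins other than Efna5 had no call. The arterial ligand Efnb2 differed by 0.13 in the DA (adjusted p = 0.28), and its receptor Ephb4 by 0.02 in the DA and 0.12 in the aorta, with group means between 109 and 123 CPM. Efnb1 had changes of -0.36 and -0.05 (adjusted p = 0.059 and 0.96), and Ephb3 of -0.10 and 0.12. Efna1 and Efna2, ligands of Epha3 and Epha4 as well, had changes of 0.53 and 0.01 in the DA (adjusted p = 0.14 and 0.98). The receptors Epha2 and Epha5 had changes of -0.03 and 0.55 in the DA and of 0.29 and 0.48 in the aorta. Among the class B plexins, receptors of class 4 semaphorins, Plxnb2 averaged 173 ± 15.9 CPM in control DA (SD, n = 7) and 207 ± 27.7 in Prdm6-deficient DA (SD, n = 5; log2 0.26, adjusted p = 0.029). All 6 class 4 semaphorins stayed without a call, with DA changes from -0.88 for Sema4g to 0.76 for Sema4f.

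Genes that act beside these ligands and receptors were also read, in 4 lists with 96 genes, of which 93 were tested. In the DA 5 rose and 5 fell, where 2.61% of all genes tested were called higher and 2.82% lower. Those that rose were Trim67, a ligase linked to netrin signalling (log2 2.03, SE 0.39, adjusted p = 0.00056), the adhesion molecule L1cam (1.83, SE 0.47, adjusted p = 0.0084), Rnd2 (1.37), Dapk1, a kinase that Unc5 receptors engage (0.72), and the neogenin ligand Rgma (0.67). Those that fell were Dpysl5, a collapsin response mediator (-3.54, SE 0.51, adjusted p = 1.7e-05), Flrt3, an adhesion protein that binds Unc5 and Robo receptors (-2.74, SE 0.23, adjusted p = 4.1e-09), Chn1, the chimaerin that relays Epha4 signals (-1.88, SE 0.15, adjusted p = 2.0e-09), Farp1 (-1.01) and the kinase Src (-0.58). By list, semaphorin and plexin signalling had 2 higher and 2 lower of 33 tested, Slit and Robo signalling 0 and 1 of 17, netrin and repulsive guidance molecule signalling 3 and 0 of 19, and ephrin and Eph signalling 0 and 2 of 25. Chn1 and Epha4 therefore both fell in the DA, with means of 51.6 ± 11.1 CPM in control DA (SD, n = 7) and 14.0 ± 2.67 in Prdm6-deficient DA (SD, n = 5) for Chn1.

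In the aorta 8 of these genes rose and 2 fell (1.63% and 0.826% of all genes tested). The largest rises were those of Chn2, a second chimaerin (log2 1.56, SE 0.20, adjusted p = 4.8e-06), the Robo ligand Nell2 (1.54, SE 0.33, adjusted p = 0.0041), Farp1, a guanine nucleotide exchange factor linked to class A plexins (1.38, SE 0.19, adjusted p = 1.3e-05), the Unc5 ligand Flrt2 (0.97) and the netrin and Rgma receptor Neo1 (0.90, SE 0.11, adjusted p = 4.5e-06). Vav3, an exchange factor downstream of Eph receptors, fell by 1.33 (SE 0.17, adjusted p = 4.6e-06), and Flrt3 fell by 1.08 (SE 0.22, adjusted p = 0.0024). Neo1 averaged 79.9 ± 5.92 CPM in control aorta (SD, n = 6) and 149 ± 14.9 in Prdm6-deficient aorta (SD, n = 5). The Prdm6 effect differed between the vessels for 11 of the 93 (2.58% of all genes), and Farp1 (-2.40), Chn1 (-1.95), Chn2 (-1.80) and Vav3 (1.38) were among them. Between control DA and control aorta 11 of the 93 were higher in the DA and 4 lower (3.16% and 2.19% of all genes), led by Farp1 (1.99) and Dpysl5 (1.91).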

How the data were processed

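RNA-Seq of 23 samples was analysed from the deposited table, which holds RSEM expected counts per gene, estimated counts that the authors did not normalize. Per the methods and the submitters' processing notes, reads were filtered with FASTX, cleared of adapters with tagdust, aligned to mm10 with STAR and counted with RSEM, with an annotation called GENCODE version 20. Symbols, exons and coordinates were taken here from GENCODE M21, in which 54723 of the 54752 identifiers were found.

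Counts were rounded and tested with edgeR 4.0.16 (R 4.3.3): filterByExpr, TMM, 1 mean per group, quasi-likelihood test, and Benjamini-Hochberg adjustment over 16463 genes. Standard errors are the change divided by the square root of F. Summed levels of marker lists were compared as log2 after adding 1, by exact permutation over samples, and 11 of the 12 lists are reported. The scripts were tested on simulated data. Members and lists were chosen with earlier results of these data known. The text names every gene called in a comparison, the 10 with the highest level per kb, known partners of called genes and untested genes. For the genotype comparison of each vessel it also names up to 5 pathway genes with the largest called change each way. Pathway genes named for the control vessels and for the difference are examples. Other genes were named after their values were seen.

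Alternatives were DESeq2 1.42.0, its size factors in edgeR, no count filter, fits of the compared samples alone, replicate, animal and embryo blocks, the series of animal numbers, leaving out pooled samples, Cre-carrying controls or each library, and the adjusted p alone. Exons of 19 of the 70 genes overlap another gene, and the methods state default parameters for RSEM, which do not use the strand.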

Additional observations from a re-analysis of the deposited data

Results flagged for a closer look

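Among 80 groups of samples checked, 4 for each of the 20 called genes, 5 held a sample far from the others, and chance gives about 1 in 20. Slit3 measured 192 CPM in control DA replicate 3, where the other control DA samples reached 148 CPM. Robo2 measured 7.86 CPM in control aorta replicate 6, against at most 5.20 CPM in the others. Ntn3 measured 24.1 CPM in Prdm6-deficient DA replicate 5, with the rest at or below 15.8 CPM. Epha3 was lowest in control aorta replicate 1, at 118 CPM, against 174 CPM or more. Epha7 was lowest in Prdm6-deficient DA replicate 6, at 18.9 CPM, against 23.8 CPM or more.

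The Prdm6 effect differed between the vessels for 6 genes by a test of the difference. The effect in the DA minus that in the aorta was -1.16 for Slit2, -1.83 for Ntn3, -1.65 for Ntn4, -0.86 for Unc5b, 1.80 for Epha1 and -1.63 for Epha4, on the log2 scale.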

How the results depend on the processing

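The 38 called log2 changes were recomputed under the alternatives, giving 1291 values. All 1291 kept their direction, 1144 also kept the call, and 147 lost it. The changes were chosen by their calls in the main fit, and 23 of the alternatives leave out a single library. A kept direction is therefore a weak check. Percentages in brackets are the share of all genes called in the same fit. In the DA, 9 genes were called (5.43%). The count was 5 when only the compared samples were fitted (4.03%), 2 within the first series of animal numbers (1.1%), 4 within the second (2.37%), with Dcc added, and 4 without the pooled samples (3.74%). The series as a covariate gave 6 (4.96%), and DESeq2 gave 11 (6.77%), with Ntn5 and Plxnb3 added. Between the Prdm6-deficient vessels, 1 gene was called (0.267%). DESeq2 called 2 (0.832%), Ntn1 and Robo1, and edgeR called 0 when only the compared samples were fitted, with the replicate block, within the first series, within the second, without the pooled samples, without Prdm6-deficient DA replicate 1 and control aorta replicate 4, or with the embryo block, with 16, 20, 8, 14, 10, 11 and 10 genes at an unadjusted p under 0.05 in that order. The shares of all genes called in these fits were 0.555%, 0.0972%, 0.0164%, 0.0339%, 0.0864%, 0.143% and 0.0668%. For the difference of the effects, 6 genes were called (2.58%), and 3 within the second series (0.938%). DESeq2 called 9 (3.73%). Between the control vessels, 13 genes were called (5.36%), and DESeq2 called 16 (6.38%), with Dcc, Nrp2 and Sema3e added. In the aorta, 9 genes were called (2.45%), and 12 when only the compared samples were fitted (4.62%), with Nrp2, Ntng1 and Plxna4 added. Series and reduced fits hold fewer samples, and for the other settings the cause was not tested. Leaving out each library in turn gave 6 to 10 called genes in the DA (4.66% to 5.79%), 7 to 10 in the aorta (1.93% to 2.69%), 12 to 16 between control vessels (4.73% to 5.88%), 0 to 1 between Prdm6-deficient vessels (0.131% to 0.354%) and 5 to 8 for the difference (2.13% to 2.99%).

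With the replicate number as a block, 7 genes were called in the DA (4.74%), 9 in the aorta (2.17%), 12 between control vessels (5.02%) and 4 for the difference (2.03%). The calls lost were Robo2 and Sema6d in the DA, Epha3 in the aorta, where Efnb2 was added, Unc5c between control vessels, and Epha1 and Slit2 for the difference. A shared replicate number marks the same embryo for some pairs of samples and different embryos for others. Residuals of the 28 pairs that share a number correlated with a median r of 0.0005. For the 10 pairs from the same animal the median r was 0.019, so this correlation cannot tell whether samples are paired. With the animal as a block, 13 genes were called between control vessels (4.54%), 12 of them as before, with Unc5c lost and Plxnb1 added. That fit used only control embryos that gave both vessels. With the embryo as a block over all samples, and a pooled sample joined with those of its embryos, 14 genes were called between control vessels (4.57%) and 4 for the difference (1.45%). Plxnb1 was the gene added between the control vessels. Genotype cannot be compared within an embryo.

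Leaving out Prdm6-deficient DA replicate 1 and control aorta replicate 4 together, and the embryo block, were chosen after seeing the data. The first series gave no value for the aorta, the control vessels or the difference, and the fit of compared samples none for the difference, which uses all groups. Of the 10 highest levels per kb, 9 were the same by longest transcript. Nrp1 (23.9 CPM per kb of longest transcript) took the place of Efnb1, and Epha3 (33.0) moved from rank 8 to rank 3. Genes with few or 0 counts in many libraries, such as Ntn5 and, outside control DA, Dcc, are limited by depth, and floors cover counting error only.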
